A study of Mus musculus with 34 samples.

Results

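The core pluripotency factors Oct4 (gene symbol *Pou5f1*), Sox2 and Nanog were examined together with 2 genes of the same circuit, *Sall4* and *Rest*. These 5 genes were taken by symbol from the 23366 genes of the normalized count table, and each of them had 1 row. All 4 RNA-seq libraries came from J1 mouse embryonic stem cells (mESCs), a line that self-renews in culture when the cytokine LIF is supplied. They were grown on gelatin in serum medium without LIF (serum/-LIF, 2 libraries) or in the same medium with 0.5 mg/ml of purified Royalactin, the main protein of honey bee royal jelly (serum/-LIF + Royalactin, 2 libraries), so both groups lacked LIF and were from 1 line. The labels give passage 40, whereas the methods describe 10 passages in the test medium. The other 30 samples of the series were ATAC-seq samples, not analysed here, and cells kept in LIF were likewise not part of the comparison. The comparison asked whether the core factors were held at a different level when Royalactin was present and LIF was not.

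Oct4 is a POU-domain protein and Sox2 an HMG-box protein, and they bind side by side on a joined DNA element to hold the pluripotent state. Nanog is a homeodomain protein that sits on many of the same enhancers and lets mESCs self-renew with less LIF. Sall4 is a zinc-finger protein that binds Oct4 and Nanog and recruits the NuRD deacetylase complex, and REST is a zinc-finger repressor that silences neuronal genes through the CoREST and Sin3 corepressors.

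In the annotation of the build used by the study, mm9, all 5 are protein-coding genes. *Pou5f1* lies at chr17:35642982-35647721 on the plus strand, with 2256 exon bases in 6 blocks. *Sox2* has a single exon block of 2457 bases at chr3:34548927-34551383, inside the span of the long noncoding gene *Sox2ot* but sharing no exon base with it. *Nanog* lies at chr6:122657507-122664651 with 2242 exon bases in 5 blocks. *Sall4* lies on the minus strand at chr2:168573832-168593443 with 5536 exon bases, of which 526 overlap the noncoding gene *Gm14261* on the other strand, so reads over those bases could not be assigned if strand was not used in counting. *Rest* lies at chr5:77694516-77715457 and is the longest of the 5, with 7254 exon bases.

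The bases before the start sites of *Sox2*, *Nanog* and *Pou5f1* are given because they show which of the core factors' own DNA elements lie there. They were taken from RefSeq (table of build GRCm38.p6) and each was found once in mm9 by exact match. Capitals mark the octamer ATGCAAA bound by POU proteins in *Sox2*, the joined Oct4-Sox2 element in *Nanog* (read on the minus strand) and a GC box in *Pou5f1*.
Sox2, chr3:34548667-34548916, plus strand: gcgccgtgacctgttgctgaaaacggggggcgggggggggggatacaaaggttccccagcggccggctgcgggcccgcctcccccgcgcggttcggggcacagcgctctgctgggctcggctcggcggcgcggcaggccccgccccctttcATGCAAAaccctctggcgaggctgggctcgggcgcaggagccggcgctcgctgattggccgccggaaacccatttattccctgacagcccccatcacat
Nanog, chr6:122657257-122657506, plus strand: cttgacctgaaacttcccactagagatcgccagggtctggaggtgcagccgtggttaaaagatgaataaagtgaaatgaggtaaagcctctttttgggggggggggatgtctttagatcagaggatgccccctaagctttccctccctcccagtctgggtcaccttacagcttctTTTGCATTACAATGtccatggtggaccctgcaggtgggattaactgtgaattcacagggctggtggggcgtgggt
Pou5f1, chr17:35642727-35642976, plus strand: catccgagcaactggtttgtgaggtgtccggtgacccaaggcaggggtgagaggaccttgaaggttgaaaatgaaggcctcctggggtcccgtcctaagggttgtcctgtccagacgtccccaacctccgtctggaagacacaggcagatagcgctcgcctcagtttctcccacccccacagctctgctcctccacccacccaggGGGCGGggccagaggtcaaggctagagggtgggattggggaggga

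The 3 stretches differed in which letters they held. With positions counted from the RefSeq start, the *Nanog* stretch held the full 14-base element, the Sox letters CATTGT followed by any base and the octamer ATGCAAA, at -75 to -62, so its Sox and octamer matches are parts of 1 site and not separate. That element was searched because it is the known *Nanog* element. On both strands of the 32851 promoter windows of 300 bases in the same table, it was found in 2 windows (0.00609%), both of *Nanog*. The *Sox2* stretch held the octamer, found in 4.63% of the windows, at -99 to -93, and no CATTGT. The *Pou5f1* stretch held neither the octamer nor CATTGT, which was found in 12.6% of the windows. A second *Pou5f1* window in the table, at chr17:35645502-35645801, held CATTGT on the minus strand at -158 to -153 from its own start. The GC box GGGCGG, found in 35.7% of the windows, lay at -45 to -40 in the *Pou5f1* stretch and also in that of *Sox2*, at -223 to -218 on the plus and -111 to -106 on the minus strand, left in lower case. A match describes the letters and does not show that a factor was bound.

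Library depth ranged from 14737796 to 17597818 reads on genes. Reads of *Rn45s*, the precursor of ribosomal RNA, made up 46.6% and 21.6% in serum/-LIF and 38.4% and 9.08% with Royalactin, leaving 7878527 to 15999458 reads for all other genes. Values below are normalized counts, that is, reads divided by 1 size factor per library, and the fold changes come from log2(normalized count + 1). In such bulk libraries, fewer cells that express a gene and less RNA per cell cannot be told apart. The labels state culture in triplicate and the design biological duplicates, but nothing ties the 2 libraries of a group to separate cultures, so the tests measure the spread between these libraries only.

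*Sox2* rose with Royalactin and was the only 1 of the 5 genes to pass an adjusted p of 0.05. It had 1415 and 1300.0 normalized counts in serum/-LIF and 4381 and 3476 with Royalactin. Both Royalactin libraries lay far above both serum/-LIF libraries, by 2.46-fold at the closest pair and 3.37-fold at the widest. The mean went from 1357 ± 81.2 to 3929 ± 640.2 (SD, n = 2 each), a log2 fold change of 1.52 with an SE of 0.29 (limma, Benjamini-Hochberg adjusted p = 0.0368 over 12993 tested genes). On a linear scale this was 2.88-fold, with a 95% interval of 1.86 to 4.44. It stood 49th among all tested genes by p. The call rested on all 4 libraries. Leaving out any 1 of them kept the log2 fold change between 1.36 and 1.69 but took the limma adjusted p to between 0.0805 and 0.943, and without a trend in limma's variance it was 0.358.

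*Nanog* was also higher in both Royalactin libraries but did not pass the adjusted threshold. It had 859 and 716 normalized counts in serum/-LIF and 1467 and 1738 with Royalactin. The groups did not overlap, and the closest libraries of these conditions differed 1.71-fold. The log2 fold change was 1.02 (SE 0.30), or 2.03-fold with a 95% interval of 1.3 to 3.19, with a limma p of 0.00448 before and 0.219 after Benjamini-Hochberg adjustment. Of all 75-base stretches in the *Nanog* exons, 43.6% matched elsewhere in mm9 with at most 2 mismatches, in 5115 other windows of 5 kb, and reads from these stretches could have been dropped or shared in counting. For *Sox2* this share was 0%.

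*Rest*, too, was higher in both Royalactin libraries and did not pass. Its normalized counts were 3323 and 2327 in serum/-LIF and 5211 and 4379 with Royalactin. Both Royalactin libraries exceeded both others, the closest by 1.32-fold, which was less than the 1.43-fold between the serum/-LIF libraries themselves. The log2 fold change was 0.78 (SE 0.31), or 1.72-fold with a 95% interval of 1.09 to 2.71 (limma, adjusted p = 0.415).

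*Pou5f1*, in contrast, did not separate the groups. It had 4996 and 5407 normalized counts in serum/-LIF and 5139.9 and 7453 with Royalactin. The first Royalactin library lay between the serum/-LIF libraries and the second above all others. The log2 fold change was 0.25 (SE 0.31), and its 95% interval of 0.748- to 1.9-fold left room for a modest fall as well as for a rise close to that measured for *Nanog* (limma, adjusted p = 0.854). Without the second Royalactin library the log2 fold change was -0.02. For *Pou5f1*, 19% of the exon stretches matched elsewhere in the genome.

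*Sall4* varied most between replicates. It had 2349.7 and 1056 normalized counts in serum/-LIF and 2992 and 1996 with Royalactin. The first library was the higher in each condition, and the serum/-LIF pair alone differed 2.22-fold, so the groups overlapped. The log2 fold change was 0.63 (SE 0.38), with a 95% interval of 0.884- to 2.72-fold (limma, adjusted p = 0.66). In each condition the library with the higher *Sall4* level was also the one with the larger *Rn45s* share. The same held for *Sox2* and *Rest*, for *Nanog* in serum/-LIF only, and for *Pou5f1* in neither condition. The part of the *Rn45s* share in these values was not tested.

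Over the 5 genes, 5 had a log2 fold change above 0, where 49.4% of all tested genes did, 3 lay above both serum/-LIF libraries in both Royalactin libraries (19.7% of tested genes), 3 had an unadjusted limma p under 0.05 in this direction (4.76%), and 1 passed the adjusted threshold in this direction (0.331%; 0.493% in either). The median log2 fold change of all tested genes was -0.01. Among the 3311 genes with a mean of at least 700 normalized counts, the replicates differed by a median of 0.39 on the log2 scale in serum/-LIF and 0.26 with Royalactin. Against this, the serum/-LIF pair differed by 0.11 for *Pou5f1*, 0.12 for *Sox2*, 0.26 for *Nanog*, 0.51 for *Rest* and 1.15 for *Sall4*. The Royalactin pair differed by 0.54 for *Pou5f1*, 0.33 for *Sox2*, 0.24 for *Nanog*, 0.25 for *Rest* and 0.58 for *Sall4*.

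**Figure D1:**
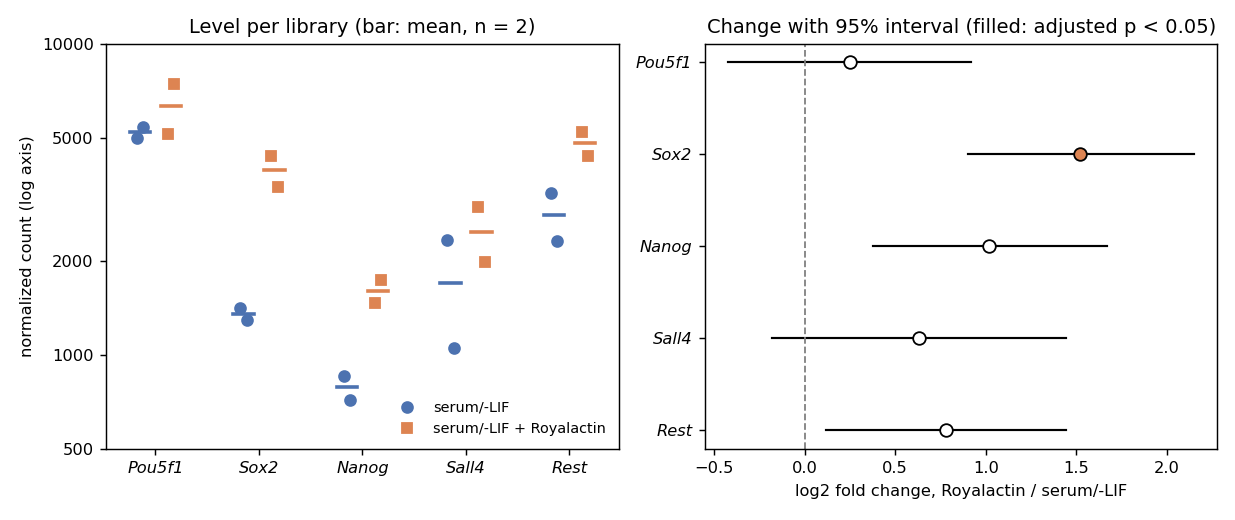
Left, normalized count (log axis) of each core factor in each library, with circles for serum/-LIF, squares for serum/-LIF + Royalactin and bars at the group means (n = 2). Right, the limma log2 fold change with its 95% interval, in which the interval lies above 0 for *Sox2*, *Nanog* and *Rest* and spans 0 for *Pou5f1* and *Sall4*, and only *Sox2* is filled as passing an adjusted p of 0.05.

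Levels between genes were compared per kilobase of exon, with lengths from an annotation that may not be the one used in counting. *Pou5f1* was the highest in every library, at 2215 and 2397 normalized counts per kb in serum/-LIF and 2278 and 3304 with Royalactin, which placed it above at least 98.1% of the 15536 genes with a length. In serum/-LIF the other 4 genes lay close together, with means of 552 ± 33.1 for *Sox2*, 389 ± 97.1 for *Rest*, 351 ± 44.9 for *Nanog* and 308 ± 165 for *Sall4* (SD, n = 2). *Sox2* exceeded these 3 in both libraries, and the 3 lay within each other's spread. With Royalactin *Sox2* reached 1599 ± 261 per kb, while *Nanog* at 715 ± 85.6 and *Rest* at 661 ± 81.1 did not differ beyond their spread and *Sall4* was at 451 ± 127. *Sox2* thereby moved from rank 1037 and 1378 to rank 288 and 457 by level per kb. The place of *Nanog* in this order depended on the length used. With only stretches found once in the genome counted as length, *Nanog* was at 794 and 663 per kb in serum/-LIF. *Sox2* was lower there, at 594 and 546. With Royalactin *Nanog* was at 1357 and 1608 against 1839 and 1459 for *Sox2*. This length also left out bases at exon ends. *Nanog* had 1918 stretches, 837 of them repeated, in 2242 exon bases, and *Sox2* had 2383, none repeated, in 2457. All reads were kept, so the *Nanog* values are too high if reads from repeated stretches were counted. The part of the repeats alone in the changed order was not tested.

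The balance between the factors was then read within each library, where the size factor cancels. The *Pou5f1* to *Sox2* ratio of normalized counts was 3.53 and 4.16 in serum/-LIF and 1.17 and 2.14 with Royalactin, a fall of the ratio to 0.414 of its value. The *Pou5f1* to *Nanog* ratio went from 5.82 and 7.55 to 3.5 and 4.29. Both Royalactin libraries lay below both others for each of these ratios, so fewer *Pou5f1* reads were counted for each *Sox2* or *Nanog* read. The *Sox2* to *Nanog* ratio went the other way, from 1.65 and 1.82 to 2.99 and 2. Its closest libraries, at 1.82 and 2, lay near each other, and the error of counting reads was left out of all ratios. *Sox2* was also higher relative to *Rest*, at 0.426 and 0.559 against 0.841 and 0.794, and relative to *Sall4*, at 0.602 and 1.23 against 1.46 and 1.74. For single genes, 19.7% of all tested lay above and 18.9% below both serum/-LIF libraries in both Royalactin libraries. The pairs share genes, so they are not independent. Of the 10 possible pairs, the 5 named above did not overlap between conditions and the other 5 overlapped. The exact two-sided permutation p was 0.333 for each of the 5 (0.667 after Benjamini-Hochberg adjustment over the 10 pairs), the smallest that this test can give for 2 libraries against 2, so it could not have passed 0.05.

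**Figure D2:**
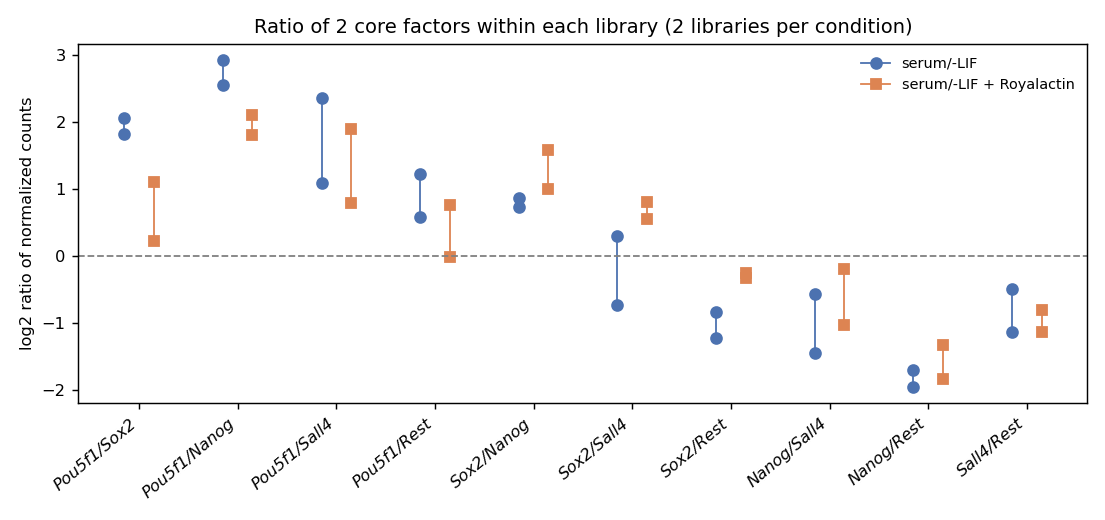
Log2 ratio of the normalized counts of each pair of core factors within each library (circles, serum/-LIF; squares, serum/-LIF + Royalactin; lines join the 2 libraries of a condition). The conditions are apart for *Pou5f1* over *Sox2* and over *Nanog* and for *Sox2* over *Nanog*, *Sall4* and *Rest*, and overlap for the other 5 pairs.

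*Sox2*, *Pou5f1* and *Sall4* were each set against their own gene family, and *Nanog* and *Rest* were not. Among the Sox genes, which share the HMG box, *Sox2* made up 34.2% and 35.3% of the summed level per kb in serum/-LIF and 63.6% and 62.2% with Royalactin. *Sox11*, a Sox gene known from neural and mesenchymal progenitors, was the more abundant of the pair in serum/-LIF, with 47.9% and 49.2%, and held 24.8% and 22% with Royalactin. The level of *Sox2* per kb was 0.715 and 0.717 times that of *Sox11* in serum/-LIF and 2.57 and 2.83 times with Royalactin. Their order per kb was thus opposite in the 2 conditions. This order and the shares depend on the exon lengths used, whereas the change of the ratio between conditions does not. The shares cover *Sox2* and 17 others, without *Sox1*, which had no exon length. *Sox11* itself had 1621 and 1485 normalized counts in serum/-LIF and 1397 and 1006 with Royalactin (log2 fold change -0.39, SE 0.30, limma adjusted p = 0.748). Of 18 other Sox genes, 11 were tested and 0 passed, with 2 at an unadjusted limma p under 0.05 and a list median of -0.04. The highest log2 fold changes in the list were 2.95 for *Sox21*, at 1.34 and 17.6 against 43.3 and 57.8 normalized counts, and 1.5 for *Sox15*, at 30.8 and 54.9 against 98.6 and 142. The most negative log2 fold changes were -1.27 for *Sox3* and -1.14 for *Sox18*, both below 100 normalized counts.

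**Figure D3:**
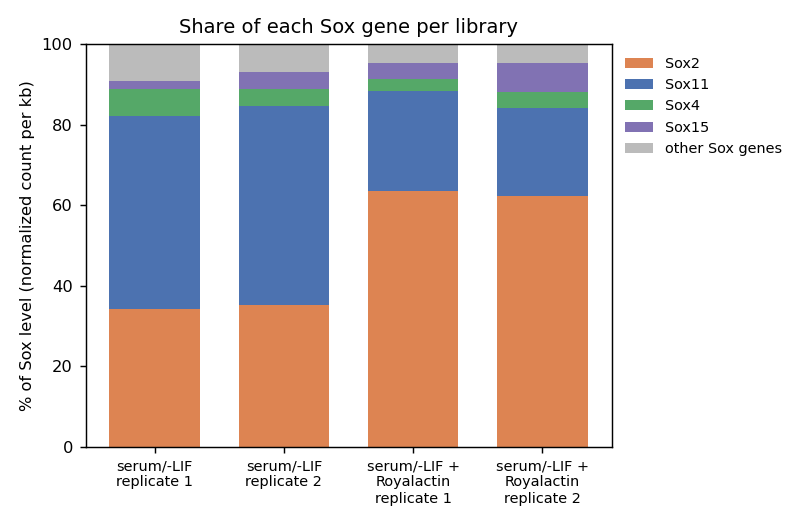
Share of each Sox gene in the summed level per kb of 18 Sox genes (*Sox2* and 17 others), in percent, for each library. *Sox1* had no exon length and was left out. *Sox2* takes 34.2% and 35.3% in serum/-LIF and 63.6% and 62.2% with Royalactin, while *Sox11* goes from 47.9% and 49.2% to 24.8% and 22%. The shares depend on the exon lengths used.

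*Pou5f1* dominated the POU family in both conditions, with 80.1% and 86.6% of the summed level per kb in serum/-LIF and 85.6% and 92.2% with Royalactin. These sums left out *Pou5f2*, which had no exon length. The next POU gene in serum/-LIF was *Pou3f1* (Oct6), which is known from the primed epiblast and had 1089.9 and 658 normalized counts there. With Royalactin *Pou3f1* had 334 and 308, below both serum/-LIF libraries (log2 fold change -1.40, SE 0.36, limma adjusted p = 0.142), and the broadly expressed *Pou2f1* (Oct1) was next. Of 14 other POU genes, 7 were tested and 0 passed, with 2 at an unadjusted limma p under 0.05. The ends of the list were low-count genes of neural lineages. *Pou4f2* had 24.1 and 0 normalized counts in serum/-LIF and 85.5 and 48.2 with Royalactin, *Pou6f1* 12 and 16.6 against 59.3 and 18.6, *Pou4f1* 34.8 and 38.3 against 5.03 and 22, and *Pou4f3* 16 and 21.7 against 16.1 and 0.

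*Sall4* held 57% and 47.6% of the Sall family level per kb in serum/-LIF and 55.8% and 57.2% with Royalactin. *Sall1*, another partner of Nanog in mESCs, had 730.2 and 471 normalized counts in serum/-LIF and 1606 and 931 with Royalactin (log2 fold change 1.06, limma adjusted p = 0.325), and *Sall3* was at 0.86 on the same scale. *Sall2* had 919 and 561 against 499.9 and 385, with a log2 fold change of -0.71. None of the 3 passed in limma, with 1 at an unadjusted p under 0.05, but *Sall2* was next after *Sall4* in serum/-LIF and *Sall1* with Royalactin.

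The genes around the core factors were read as 10 lists. Together they held 122 tested genes, of which 9 passed the limma adjusted threshold (7.38%, against 0.493% of all tested genes). With Royalactin 8 of these 9 were higher and 1 was lower. The lists were written with earlier results of these data known, so these shares are a description and not a test. The list calls also depended on single libraries, but only that of *Nefl* on all 4, as that of *Sox2* did. Without the variance trend 0 of these genes passed. In that setting 22 had an unadjusted limma p under 0.05, as did 1135 of all 12993 tested genes. Genes known to be bound and activated by Oct4, Sox2 or Nanog had the highest median of the 10 lists. Of 20 such genes, all tested, 6 rose, 0 fell and 14 did not pass. In 19 the log2 fold change was above 0 and in 17 both Royalactin libraries lay above both others (19.7% of all tested genes), and the list median was 1.14. *Tcl1*, a cofactor of Akt signalling, had 13.4 and 14.5 normalized counts in serum/-LIF and 219 and 198 with Royalactin (log2 fold change 3.81, SE 0.68, limma adjusted p = 0.0261, but 0.0602 with a pseudocount of 0.1 and 0.114 with no filter on low values). *Nr5a2*, a nuclear receptor that binds the *Pou5f1* promoter, had 76.2 and 65.2 against 765 and 582 (3.22, SE 0.42, limma adjusted p = 0.00333). *Zfp42* (Rex1), the standard reporter gene of naive mESCs, had 491 and 704 against 2726 and 3083 (2.30, SE 0.31, limma adjusted p = 0.00371).

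The other 3 targets that rose were *Esrrb*, described with the partners, *Fbxo15*, an F-box gene used as a pluripotency reporter, and *Spp1*, the secreted protein osteopontin. *Fbxo15* had 127 and 303 normalized counts in serum/-LIF and 760.4 and 1105 with Royalactin (log2 fold change 2.22, limma adjusted p = 0.04). Its log2 fold change was 1.59 without the first and 2.84 without the second serum/-LIF library, and its limma adjusted p was 0.0662 with upper-quartile scaling, 0.111 with a pseudocount of 0.1 and 0.113 with no filter on low values. *Spp1* had 844 and 1095 against 3438 and 3391 (1.83, limma adjusted p = 0.0132). *Tdgf1*, the Nodal coreceptor Cripto, was the single target with a lower mean, at 10914 and 14553 against 8696 and 9728, and did not pass (-0.45, limma adjusted p = 0.73). The direct target *Fgf4*, which carries an Oct4-Sox2 element in its enhancer, had 984 and 454 against 1159.7 and 1322 (0.89, limma adjusted p = 0.459), and *Utf1*, which carries another, had 859.9 and 474 against 735 and 633 (0.10, limma adjusted p = 0.957).

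Among 21 genes for proteins known to bind Oct4 or Nanog, 3 rose, 0 fell and 18 did not pass, with a median log2 fold change of 0.37. The 3 were transcription factors of the naive network. *Tfcp2l1* had 185 and 143 normalized counts in serum/-LIF and 1560.1 and 1262 with Royalactin (log2 fold change 3.10, SE 0.35). *Esrrb*, an orphan nuclear receptor, had 233 and 181 against 1641 and 1389.8 (2.87, SE 0.33), and *Nr0b1* (Dax1), which binds Oct4 and holds back its DNA binding, had 129.7 and 129 against 844 and 1059 (2.86, SE 0.36). Their limma adjusted p-values were 0.00273, 0.00273 and 0.00333. Against these, the most negative log2 fold changes in the list were -0.48 for *Zfp609* and -0.25 for *Zfp143*, and neither passed.

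Genes for the partner complexes did not pass. Of 14 genes for NuRD subunits, the deacetylase complex that Sall4 recruits, 0 passed in limma and 0 had an unadjusted p under 0.05, and the list median was -0.05. The values ran from -0.72 for *Chd3* and -0.50 for *Mta1* to 0.29 for *Rbbp4* and 0.38 for *Mbd2*. Of 15 genes for REST corepressors, 0 passed and 1 had an unadjusted limma p under 0.05, with a median of 0.23 and 13 log2 fold changes above 0. The 1 was *Rcor2*, the CoREST paralogue of mESCs, with 599 and 203 normalized counts in serum/-LIF and 934 and 915 with Royalactin (log2 fold change 1.40, SE 0.44, limma adjusted p = 0.263). *Ehmt2*, the histone H3 methyltransferase G9a, was next at 0.66, while *Rcor1* at -0.17 and *Sin3b* at -0.07 closed the list.

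The neuronal genes that REST is known to repress were mostly near the detection limit. Of 35 such genes, 25 reached the mean of 10 normalized counts needed for testing, and *Calb1* was at 0 in all 4 libraries. In limma 0 rose and 1 fell, and the median log2 fold change of the tested genes was 0.46, with 13 above and 12 below 0. The 1 that fell was *Nefl*, the light neurofilament subunit, at 1693 and 1960.4 normalized counts in serum/-LIF and 521 and 727 with Royalactin (log2 fold change -1.56, SE 0.31, limma adjusted p = 0.045). This call was lost with upper-quartile scaling (limma adjusted p = 0.0662), with the total without *Rn45s* set equal (0.0655), with a pseudocount of 0.1 (0.0943), with no filter (0.0916) and with any 1 library left out (0.115 or more). The medium subunit *Nefm*, its neighbour in the filament, had 310.3 and 275 against 99.6 and 21.3 (-2.63, SE 0.66, limma adjusted p = 0.136). The sodium channel genes went to both ends, with *Scn3a* at 40.1 and 0 against 127 and 136 and *Scn2a1* at 20.1 and 70.4 against 0 and 26.2, and *Vgf* had 6.69 and 0 against 25.1 and 16.5. *Stmn2* at 661 and 1232 against 1162 and 1406 and *Tubb3* at 377 and 379 against 484 and 708 were the most abundant genes of the list with a higher mean.

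Genes acting upstream on the core factors did not pass. Of 8 known repressors of *Pou5f1* or *Nanog*, 4 were tested, with 0 passing in limma and 0 at an unadjusted p under 0.05. *Trp53* had a log2 fold change of 0.74, *Tcf7l1* of 0.72 and the germ cell nuclear factor gene *Nr6a1* of -0.13, and the lineage repressors *Cdx2*, *Nr2f1*, *Nr2f2* and *Gata6* were too low to test. Of 8 enzymes that modify the core proteins, 0 passed and 1 had an unadjusted limma p under 0.05. This was *Setd7*, a lysine methyltransferase, at 1393 and 919 normalized counts in serum/-LIF and 695 and 534 with Royalactin (-0.89, limma adjusted p = 0.389). The deubiquitinase gene *Usp7* was at 0.50 and the Oct4 ubiquitin ligase gene *Wwp2* at 0.55.

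**Figure D4:**
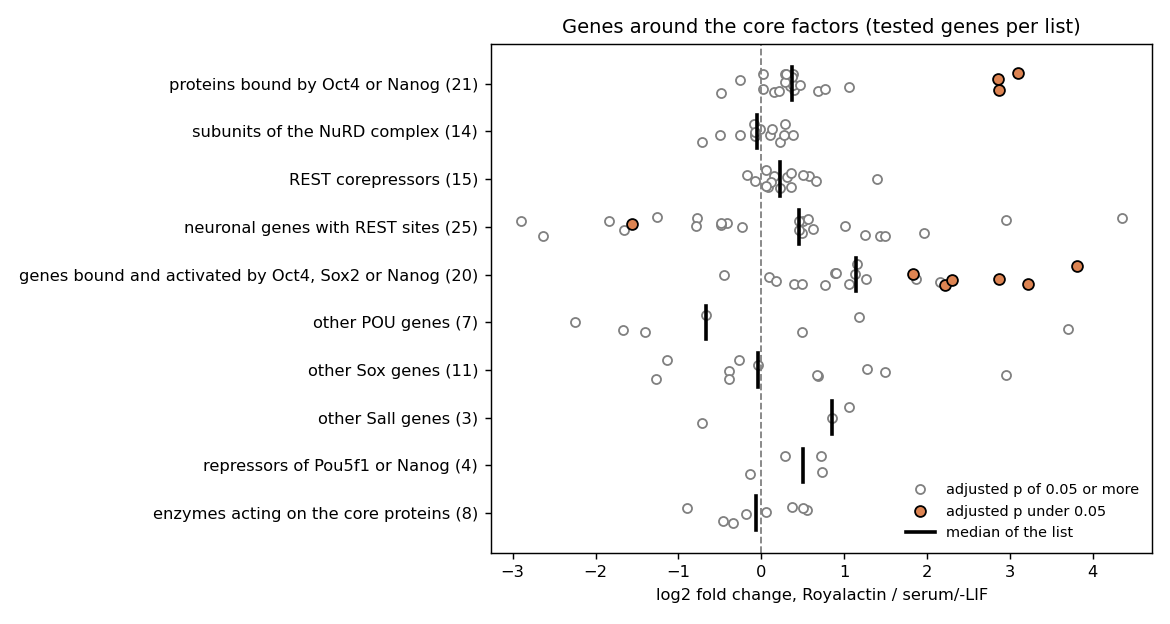
Limma log2 fold change (serum/-LIF + Royalactin over serum/-LIF) of every tested gene in the 10 lists, with the number tested in brackets, filled points for an adjusted p under 0.05 and bars at the list medians. The filled points are 8 genes on the right among the partners and targets (*Esrrb* is in both lists) and *Nefl* on the left among the neuronal genes, and the NuRD subunits stay between -0.72 and 0.38.

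Markers of mESCs and of other cell types were read beside these results. All 10 mESC markers were tested, 2 rose (*Zfp42*, and *Tdh*, the threonine dehydrogenase gene of mESCs, at 416 and 519.6 against 2268 and 3196 normalized counts) and 0 fell, and their summed normalized counts were 34047 and 39348 in serum/-LIF and 40369 and 46575 with Royalactin. Every library expressed all 10 markers of its labelled cell type, each at 416 normalized counts or more. The sums came mostly from *Tdgf1*, *Lin28a*, *Dppa5a* and *L1td1*. In both Royalactin libraries 6 of the 10 lay above both serum/-LIF libraries (19.7% of all tested genes). The 2 genes *Tdgf1* and *Lin28a* lay below both (18.9%). Fibroblast markers summed to 112 and 95.2 against 55.3 and 37.9, with *Pdgfrb*, *Postn* and *Fap* at 0 in all libraries. Primitive endoderm markers summed to 2495 and 1287 against 1763 and 1301, early mesoderm markers to 226 and 132 against 230.3 and 161, with *Tbx6*, *Foxf1* and *Msgn1* at 0, and neural markers to 746 and 794 against 1026 and 1091, with *Neurog2* at 0. Trophoblast markers, 9 of 10 with a row, summed to 206 and 235 against 369 and 450.2, with *Elf5* and *Prl3d1* at 0. The higher trophoblast sums came mostly from *Tfap2c*, at 37.4 and 104 in serum/-LIF and 214 and 310.4 with Royalactin. Among the other tested trophoblast markers, *Krt7* and *Ascl2* had a higher mean and *Eomes* a lower one. The primitive endoderm sums came mostly from *Col4a1*, *Lama1* and *Dab2*, while *Gata6*, *Sox17*, *Foxa2* and *Afp* were too low to test. Of the genes in these 5 lists, 0 passed in limma and 3 had an unadjusted p under 0.05 (*Dcn* and *Col4a1* lower, *Tfap2c* higher). The part of these sums in the levels of the core factors was not tested.

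The genes whose pattern over the 4 libraries was most like that of a core factor were found by the Euclidean distance between log2 deviations, among 8878 genes with a mean of at least 100 normalized counts. Nearest to *Sox2* were *Fhod3*, *Lima1* and *Dpysl3* at distances of 0.13, 0.16 and 0.22 where the median gene was at 1.63. *Lima1* passed in limma as well, at 547 and 449 against 1699 and 1388 normalized counts (adjusted p = 0.0369). Nearest to *Nanog* were *Ano9*, *Rbm47* and *H2afy* at 0.04, 0.06 and 0.10 (median 1.2), and nearest to *Rest* were *Svil*, *Bcor* and *Fancg* at 0.03, 0.03 and 0.04 (median 1.05). *Bcor*, a corepressor of the Polycomb group, had 560.3 and 390.2 against 860.0 and 720.0. *Pou5f1* was matched by *Wdr18*, *Urod* and *Cnot8* at 0.07, 0.07 and 0.08 (median 0.78), and *Sall4* by *Rprd1b*, *Arhgef1* and *Fam160b1* at 0.10, 0.10 and 0.11 (median 1.25). With 4 libraries many genes lie near any pattern, and these distances are a description only.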

How the data were processed

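RNA was depleted of ribosomal RNA and sequenced as single 75-base reads (Illumina). The deposited signal values are normalized counts: per the methods, the authors' TopHat alignments to mm9 (at most 2 mismatches) were summed over genes by HTSeq-count, and the authors scaled each library by its DESeq size factor. The annotation and strand setting are not given in the sources used here. Every value of a library was a whole multiple of 1 step within 0.01, and reads were taken as value over step. The steps were not accepted as recovered reads for every library, so no count test was run.

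Values were analysed as log2(normalized count + 1) for 12993 genes with a mean of at least 10. Groups were compared in limma 3.58.1 (R 4.3.3) with lmFit and eBayes with a variance trend, two-sided, with Benjamini-Hochberg adjustment over all tested genes. The script was tested on simulated data. Ratios were tested by exact permutation. Intervals are 95%. Exon lengths and positions came from the GENCODE vM1 annotation of mm9, 75-base exon stretches were searched in the genome, and motifs were searched in the RefSeq promoter table (3 of 5 genes matched). Python 3.11.15 with pandas 2.3.3 and numpy 2.4.6 was used.

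The members and gene lists were chosen with earlier results of these data known. The text names the 5 members, list genes with an adjusted p under 0.05, the 2 highest and 2 lowest log2 fold changes of each list other than the marker lists, and the 3 nearest genes to each member, except 1 gene that is not reported here. Other genes named (*Fgf4*, *Utf1*, *Sox11*, *Pou3f1*, *Pou2f1*, *Stmn2*, *Tubb3*, *Calb1* and single markers) were chosen after their values were seen. Alternatives covered the pseudocount, filter, scaling, variance trend, replicate block and each library left out. Of the gene symbols, 25 had been turned into dates and could not be matched. The ATAC-seq samples were not analysed here.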

Additional observations from a re-analysis of the deposited data

How the results depend on the processing

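Each condition had 2 libraries, and each core factor had at least 642 reads in every library. Depth was not varied. No scaling (upper quartile, total without *Rn45s*, median of ratios) turned the direction of a core factor, and none moved the median log2 fold change of all genes beyond 0.05. Over all genes 64 passed in limma, 32 with a pseudocount of 0.1, 34 with no filter, 99 with a minimum mean of 50, 0 without the variance trend (1135 at an unadjusted p under 0.05), 391 with the replicate block, and 0 to 60 with 1 library left out. *Sox2* stayed at a log2 fold change of 1.52 and lost its call with a pseudocount of 0.1 (adjusted p = 0.072), with no filter (0.0786) and without the trend (0.358), so 0 core factors were called in each of these 3 limma settings (3, 3 and 2 at an unadjusted p under 0.05), and 0 with any library left out, where *Sox2* ranged from 1.36 to 1.69 and the lone library of a condition was assumed to vary like the other pair.

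*Pou5f1* ranged from -0.02 (without the second Royalactin library) to 0.52 with 1 library left out. The lists held 9 calls, 6 with a pseudocount of 0.1 and 6 with no filter (*Fbxo15*, *Nefl* and *Tcl1* were lost in both), 7 with upper-quartile scaling (without *Fbxo15* and *Nefl*), 8 with the total without *Rn45s* set equal (without *Nefl*), 0 without the trend (22 at an unadjusted limma p under 0.05) and 0 to 8 with 1 library left out. The 0 calls came without the first serum/-LIF library and without either Royalactin library. Of the 5 overlapping pairs, 4 changed direction with single libraries left out, and *Pou5f1*/*Rest* did not (-0.92 to -0.14). The log2 ratio difference ranged from -1.02 to 0.25 for *Pou5f1*/*Sall4* (0.25 without the second serum/-LIF and 0.18 without the first Royalactin library), from -0.05 to 0.84 for *Nanog*/*Sall4* (-0.05 without the first serum/-LIF and -0.02 without the second Royalactin library), from -0.003 to 0.49 for *Nanog*/*Rest*, and from -0.47 to 0.17 for *Sall4*/*Rest* (0.17 and 0.02). The 5 separated ratios kept their direction. The cause of these changes was not tested.

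Libraries with the same replicate number share only that number. Their deviations from the group means correlated at r = 0.0851 across genes, which does not pair them. With the replicate number as a block, *Nanog* was at 1.02 with a limma adjusted p of 0.0243, and that of *Sox2* was 7.81e-06. The block called 2 core factors and 19 list genes. It also called 3.01% of all tested genes, against 0.493% without it.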
